A study of Mus musculus with 15 samples.

Results

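The pi6 cluster is a piRNA-producing region of mouse chromosome 6. Its members were all small RNA loci of the 15 libraries that overlapped chr6:127776000-127842000 (mm10), on both strands and of every length. A locus was a genomic interval with a strand, and its value was the number of reads with exactly that start and end. The window held 267542 of the 8123114 loci in the series (3.29%), which began at 51492 different 5′ ends. Of these members, 31039 had more than 20 counts in total in the Ψ-IP set and 23742 in the CMC set, and only those were tested one by one. They carried 91.9% and 95.8% of the pi6 counts of their set. Most other members were rare, and 112003 of them were seen in 1 library.

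The small RNA came from testes of male C57Bl/6 mice aged 8 weeks. Each of the 5 groups had 3 libraries. In the CMC set, RNA treated with the carbodiimide CMC was compared with mock-treated RNA, which the labels also call untreated. In the Ψ-IP set, RNA bound by an antibody against pseudouridine (Ψ) was compared with the input and with the flow-through that the antibody did not bind. No group carried a mutation, and neither the labels nor the methods say whether libraries of a group came from different mice, so the p-values measure only the spread between these libraries. The 2 sets were prepared with library kits of different makers, and the Ψ-IP method describes a gel step that selected RNA by size before the IP. Loci were 14 to 33 nt long in the CMC set and 15 to 44 nt in the Ψ-IP set. A difference in level or length between the sets therefore cannot be told apart from a difference in preparation. Total counts were between 11570712 and 58365617 per library.

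piRNAs are small RNAs that guide PIWI proteins of the germ line. In adult testis most of them are pachytene piRNAs, cut from long single-stranded precursors that are often transcribed from a shared promoter in both directions. A typical piRNA begins with U. MIWI holds the longer ones and MILI the shorter ones. When a PIWI protein cuts a complementary transcript, the product starts 10 bases from the 5′ end of its guide, so that guide and product overlap by 10 bases and the product carries A at its position 10. The pi6 cluster is known for its role in sperm function. CMC attaches to Ψ and stops reverse transcriptase there.

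Reference sequence was at hand for 20805 members (7.78%), which carried 5.27% of the pi6 counts. Most of them lay in Gm42811, a single-exon transcript of unknown coding status annotated on the minus strand at chr6:127807951-127810718 (GENCODE M21). The members shown here, written 5′ to 3′ as RNA, carry the results below. The first kind is the abundant plus-strand piRNA of this stretch. Both members shown fell after CMC while forms lacking their first bases rose, and capitals mark what the shorter form kept.
chr6:127807967-127807996 (+): uuuAUUGACUUCUGUUAAAUCCUGUACUGA
chr6:127807969-127807998 (+): uAUUGACUUCUGUUAAAUCCUGUACUGAUC
The second kind is a pair of small RNAs from opposite strands whose first 10 bases, in capitals, are complementary. Both minus-strand partners have A at position 10. This follows from the pairing, since that base is the complement of the U that begins the plus-strand member.
chr6:127809515-127809543 (+): UAAUGAAUCAuugguggagaagggaacau
chr6:127809491-127809524 (-): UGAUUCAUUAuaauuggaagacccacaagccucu
chr6:127809892-127809920 (+): UGAUCAAUAGgaacccugacucccaagga
chr6:127809870-127809901 (-): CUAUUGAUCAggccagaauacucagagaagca
The last had the largest fall in Ψ-IP relative to input among called members that averaged at least 100 counts and did not overlap between groups. Its first base is in capitals.
chr6:127808466-127808495 (+): Uggcauaaugagaauaucucacgguaucuu

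Small RNAs lay in opposite directions on either side of a point near position 127796409. To its left they lay on the minus strand and to its right on the plus strand, and 99.31% of the counts lay on the strand of their own side. The minus-strand arm was short, with 99% of its counts within 14.8 kb, and the plus-strand arm spread over 40.4 kb. The plus strand held 78.0% ± 0.201 of the pi6 counts in input (SD, n = 3), 76.3% ± 0.310 in mock-treated and 79.6% ± 0.671 in flow-through libraries. Within each arm the counts were uneven. The highest 1-kb bin began at 127800001 on the plus strand, with 4296, 4289 and 4061 CPM (counts scaled to a library total of 1000000) in the 3 input libraries and 6526, 6462 and 6246 in the 3 mock-treated libraries. It was followed on that strand by the bins from 127799001 and 127797001, with means of 2452 and 2109 CPM over all libraries. The order differed between the sets, since the bin from 127817001 had a mean of 3214 CPM in mock-treated and 638 CPM in input libraries. On the minus strand the bins from 127786001, 127790001 and 127788001 held the most, with means of 1793, 1644 and 1374 CPM. These are levels in whole testis, in which fewer cells of a type and less RNA per cell cannot be told apart.

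**Figure D1:**
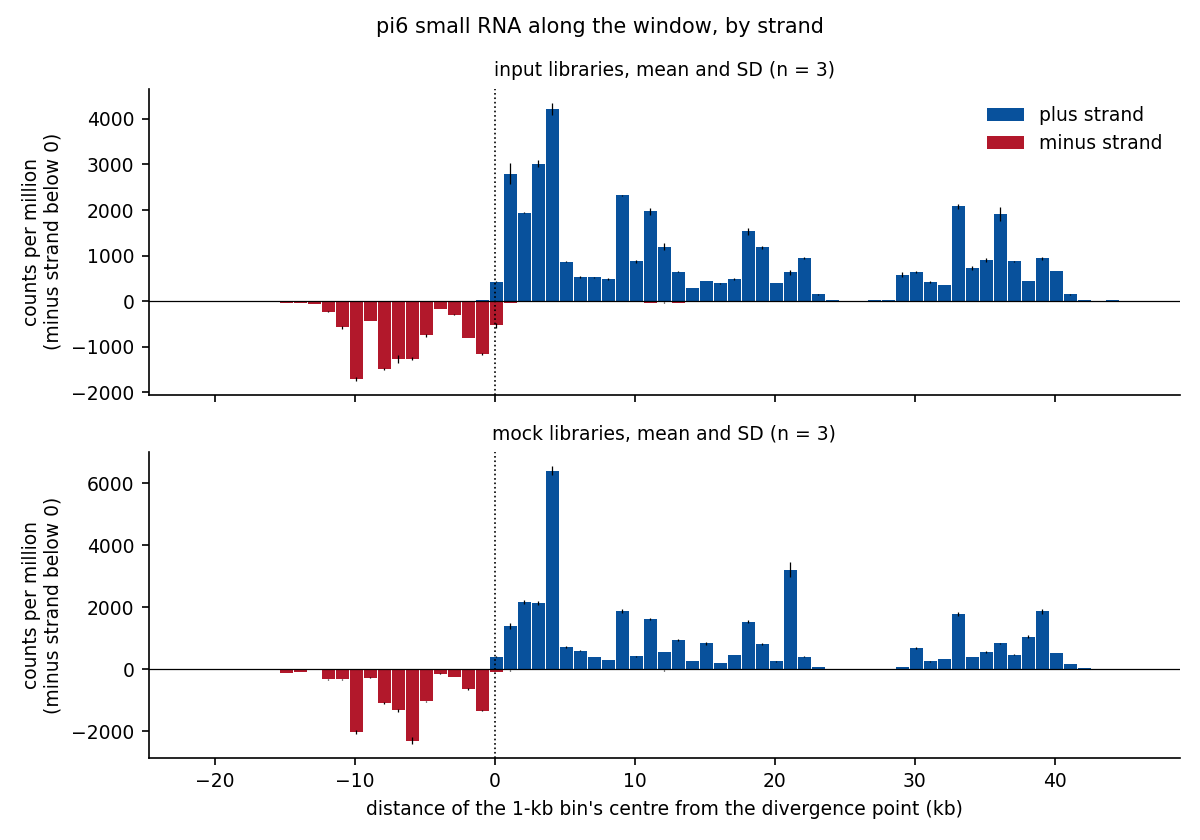
CPM in 1-kb bins of the pi6 window against distance in kb from the point where the strands part, plus strand above 0 and minus strand below, for input (top) and mock-treated libraries (bottom). Bars are means and lines the SD of 3 libraries. Nearly all minus-strand counts lie left of the dotted line, or in the bin that it crosses, and plus-strand counts right of it, with the highest bar at 4.09 kb.

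Several annotated transcripts overlapped the window. RefSeq places the long noncoding RNA genes Gm40402 (chr6:127779196-127814308), Gm38902 (chr6:127805232-127818591) and 4921513H07Rik (chr6:127776083-127778665) there. The stretch of 4921513H07Rik, at the outer end of the minus arm, gave 20.5 CPM on the minus strand on average. Gm38902 covered 13077 CPM on the plus strand and 148 on the minus strand. Gm42811, although annotated on the minus strand, covered 2469 CPM on the plus strand and 82.4 on the minus strand. The microRNA gene Mir7233 (chr6:127788084-127788143) lay inside the minus arm, where 6.30 CPM on its strand came from 202 loci.

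The pi6 small RNAs were mostly 29 to 31 nt long. The commonest length was 30 nt in each of the 15 libraries. Lengths of 29 to 31 nt made up 70.4, 70.7 and 70.1% of the pi6 counts in input, and 64.6, 64.3 and 62.0% in mock-treated libraries. The share of 25 to 27 nt was 11.5% ± 0.320 in input and 16.4% ± 0.441 in mock-treated libraries (SD, n = 3). Set against all other loci of the same library, the share of 29 to 31 nt in pi6 was higher in each of the 6 mock-treated and input libraries, by 3.17 to 4.07 percentage points, with a mean difference of 3.55 points (exact two-sided sign-flip test, p = 0.0312, the smallest that 6 libraries allow). With each locus counted once, whatever its count, the difference was -2.62 points (the same exact test, p = 0.0312), so that it held for reads and was opposite for distinct loci. The other loci were mixed in length. In these libraries the share was 40.8 to 46.7% at chr17:27269742-27371971, the cluster with the most counts. It was 66.5 to 74.6% at a large cluster on chromosome 18.

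A second, short length class was seen at 19 nt. It made up 2.42% ± 0.392 of the pi6 counts in mock-treated libraries and 0.354% ± 0.0509 in input (SD, n = 3). The class was not confined to the plus strand or to pi6. In both groups the minus strand and all other loci also had a higher share at 19 nt than at the adjacent lengths. On the plus strand in the CMC set most of the class came from the locus 127817749 to 127817767, in an L2 element. That locus had 855, 803 and 1072 CPM in the mock-treated libraries and 492, 859 and 1118 in the CMC-treated ones, but 0.439, 0.121 and 0 in input. The 30-nt locus with the same 5′ end was at 658, 559 and 605 CPM in mock-treated and at 92.9, 140 and 108 in input libraries.

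**Figure D2:**
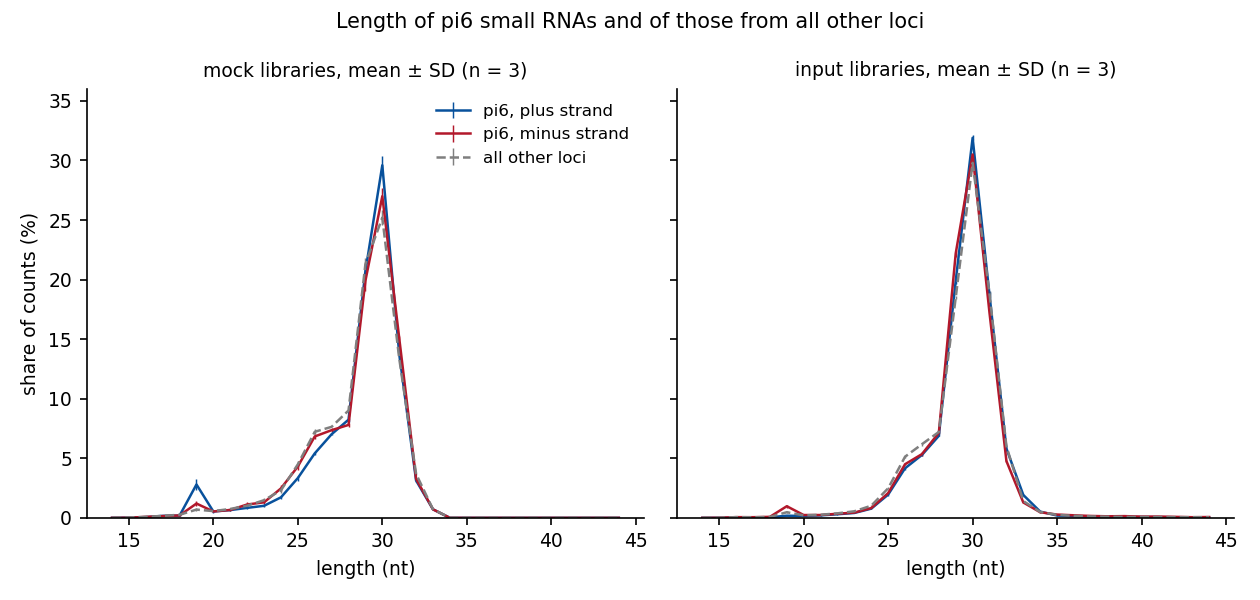
Share of counts in percent by length in nt for the pi6 plus strand, the pi6 minus strand and all other loci, in mock-treated (left) and input libraries (right); lines are means and bars the SD of 3 libraries. All curves peak at 30 nt and have a lower, further peak at 19 nt, which is highest for the plus strand in the mock-treated libraries.

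Few 5′ ends made most of the piRNA. Of the 51492 ends, 250 carried 50% of the counts and 3497 carried 90%. The 10 leading ends held 21.9% ± 0.293 of all pi6 reads with mock treatment, 12.3% ± 0.139 in input and 9.70% ± 0.524 in flow-through (SD, n = 3). The 3′ ends varied more. Among the 4372 ends with a mean of 1 CPM or more, the commonest length accounted for a median of 41.4% of the counts, and the median end had 15.0 different lengths.

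The reference bases at the 5′ ends depended on the strand. Among plus-strand members with sequence, 87.0 to 92.0% of the counts began with U, where U made up 29.9% of the bases of the same stretches. With each distinct locus counted once, 52.8% began with U. For the minus arm, with sequence for 0.243% of its counts, the range was 72.0 to 90.8%. Minus-strand members inside the plus arm, opposite to the abundant piRNAs, were different: 25.2 to 33.8% of their counts began with U, and 61.1 to 80.2% had A at position 10, where A made up 29.9% of the bases.

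Those opposite-strand members were rare. They held 0.634, 0.558 and 0.582% of the pi6 counts in input, 0.430, 0.398 and 0.392% in Ψ-IP and 0.845, 0.785 and 0.746% in flow-through libraries, so the 3 groups did not overlap. Their lengths also stood apart, since 30.6, 27.4 and 35.0% of their counts in input were 19 nt long and 19.2% ± 0.963 were 29 to 31 nt long (SD, n = 3). When the 5′ ends of both strands were paired, an overlap of 10 bases was the most frequent of the overlaps from 1 to 30 bases in all 15 libraries. It was 1.68 to 2.73 times the median of the other overlaps, and in 13 of 15 libraries the next highest overlap was 29 bases. In input, 75.3 to 79.9% of the opposite-strand counts in the plus arm had a plus-strand 5′ end at this spacing. In the 4 leading pairs with sequence the plus-strand end had the higher mean, with 142 CPM against 2.15 at 127809515, 25.4 against 2.89 at 127809892, 7.50 against 1.98 at 127808507 and 6.96 against 1.92 at 127808512. These shares depend on depth and on how crowded the 5′ ends are, and no test was made of them.

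**Figure D3:**
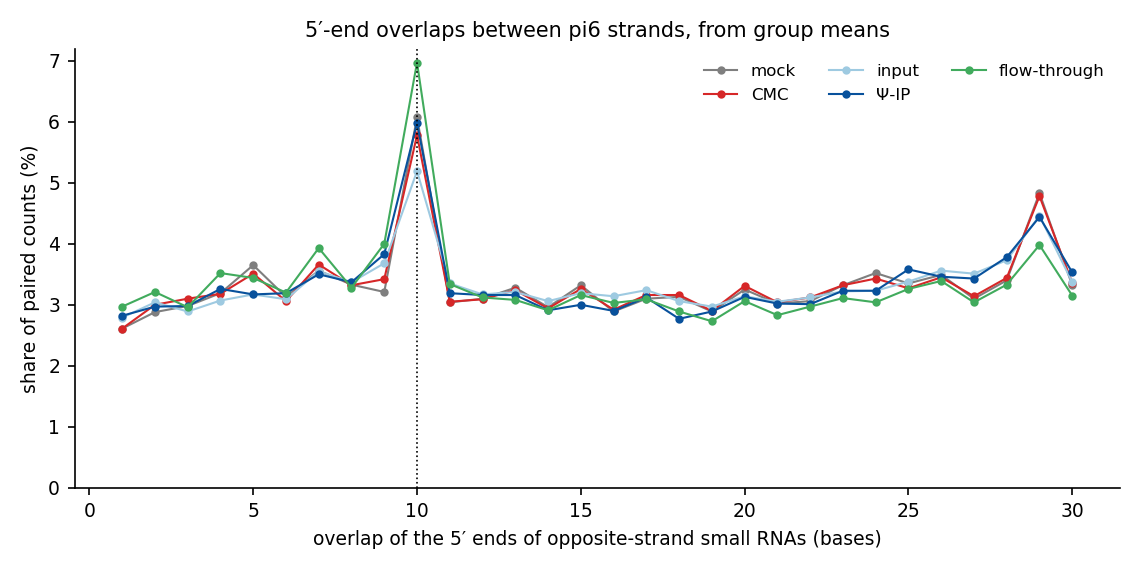
Share in percent of paired counts at each overlap, from 1 to 30 bases, between 5′ ends of plus-strand and minus-strand pi6 small RNAs, 1 line per group from the group means. Each line is highest at 10 bases, at 5.19% for input and 6.97% for flow-through, and input has a lower rise of 4.46% at 29 bases.

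Repeats took up a larger part of pi6 than of the other loci. In pi6 71.9 to 78.5% of the counts lay outside annotated repeats, against 85.0 to 86.2% elsewhere. The repeat with the most counts was a MIRc element, an old SINE, at 127800622 to 127800794 with 5.06% of the pi6 counts on average. It was followed by the endogenous retrovirus sequences RLTR14-int (3.63%) and MMERGLN-int (3.07%) and by the L2 element mentioned above (3.02%). This order is of means over all libraries and did not hold in each group. In Ψ-IP the mean of MIRc was 1261 CPM, below RLTR14-int (2258), MMERGLN-int (1820) and L2c (1770), and L2 had 2710 CPM in mock-treated but 316 CPM in input libraries. Nearly all counts in MIRc, RLTR14-int, MMERGLN-int and L2 were on the plus strand (97.9% or more in each), against 18.7% in L2c. Reads from repeats can match other copies in the genome, and how such reads were counted is not given in the sources used here.

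Among the 647 listed clusters pi6 ranked 6th by mean CPM, with 4.75 to 5.24% of each library. The 3 with the most were those at chr17:27269742-27371971 and chr9:67687024-67773986, and another on chromosome 18. Their strand use differed. The plus strand held 48.9 to 51.7% of the counts at the chromosome 17 cluster, 25.4 to 29.7% at the chromosome 9 cluster and 3.20 to 4.86% at the chromosome 18 cluster, against 76.1 to 80.3% in pi6. The share of 29 to 31 nt in mock-treated and input libraries was 40.8 to 46.7% on chromosome 17, 58.3 to 69.2% on chromosome 9 and 66.5 to 74.6% on chromosome 18, against 62.0 to 70.7% in pi6.

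The first comparison asked which pi6 small RNAs the Ψ antibody enriched over input. As a whole pi6 moved little. It held 5.02, 5.06 and 5.01% of the counts in input and 5.22, 5.24 and 5.18% in Ψ-IP, so the groups did not overlap, but the sum did not pass the threshold of 0.01 (log2 fold change 0.06, SE 0.0179, edgeR quasi-likelihood test with Benjamini-Hochberg adjustment over 547 clusters, adjusted p = 0.0133). Beside it, 19.7% of the clusters passed in either direction and 9.14% were higher. With the replicate number as a block the adjusted p was 0.00862. Taken apart, the plus-strand sum (log2 fold change 0.07, adjusted p = 0.00779) and the minus-strand sum (0.09, adjusted p = 0.00433) were higher in Ψ-IP, where 10.9% of all strand sums were higher. Neither call held on library totals without TMM scaling. The plus-strand call was lost without input library 1, 2 or 3 or Ψ-IP library 1 or 3 (0.06 to 0.07, adjusted p from 0.0164 to 0.0390), and the minus-strand call without input library 1 or 3 or Ψ-IP library 1 (0.08, adjusted p from 0.0197 to 0.0261). Without Ψ-IP library 2 the cluster sum passed (0.07, adjusted p = 0.00191), and with loci in repeats left out the minus-strand change was -0.02.

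Within the cluster the changes were larger and went both ways. Of 79 bins tested, 15 rose and 22 fell (27.8%) in Ψ-IP, where 17.9% of all bins rose and 20.3% fell (38.3% in either direction). The largest rise was at the bin from 127817001 on the plus strand, which holds the abundant L2 piRNA. Its levels were 582, 690 and 641 CPM in input and 1148, 1132 and 1317 CPM in Ψ-IP, without overlap (log2 fold change 0.94, SE 0.073, adjusted p = 3.8e-07). In flow-through its mean was 1447 CPM, above the 1199 CPM of Ψ-IP (-0.20, adjusted p = 0.058). The bin from 127826001 on the plus strand rose by 0.52 over input but was below flow-through (-0.30, adjusted p = 9.2e-04), and the minus-strand bin from 127796001, at the point where the strands part, rose by 0.51. The bin with the most counts, from 127800001, fell (3384, 3231 and 3601 CPM in Ψ-IP, log2 fold change -0.28, adjusted p = 5.4e-04). Without its loci in repeats that bin changed by 0.19 in the other direction (adjusted p = 0.00592). Of the 13 minus-strand bins opposite to the plus arm, 7 fell and the median change was -0.50. The 3 largest falls were all there, at the bins from 127808001 (-0.94), 127800001 (-0.75) and 127810001 (-0.66). The last of these did not pass with loci of 24 to 33 nt alone (adjusted p = 0.0132).

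**Figure D4:**
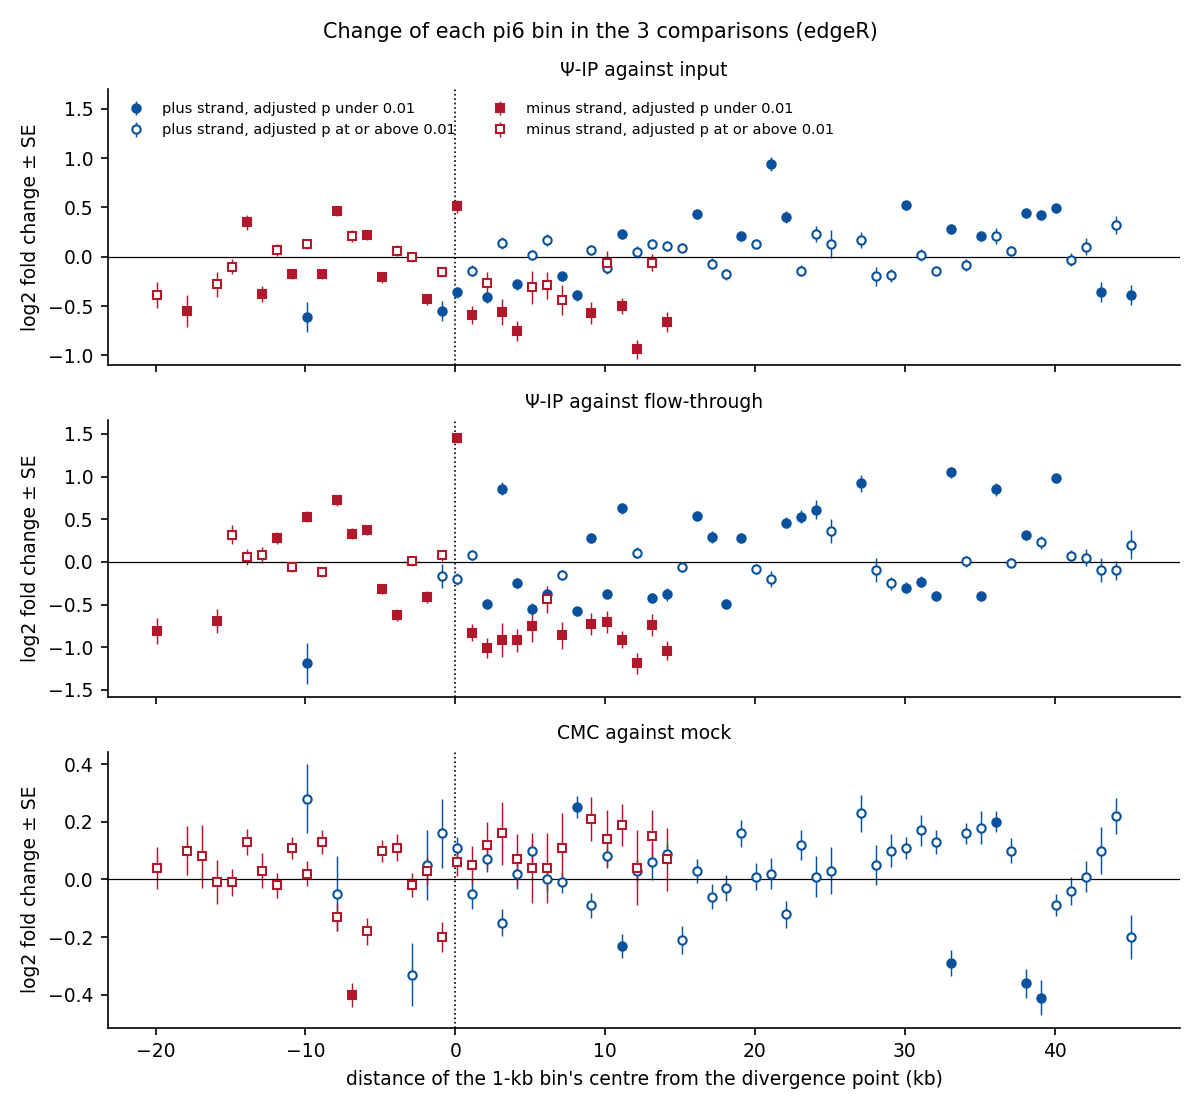
Log2 fold change ± SE (edgeR) of each tested 1-kb bin against distance in kb from the point where the strands part, for Ψ-IP against input, Ψ-IP against flow-through and CMC against mock, with 3 libraries a group. Filled symbols passed an adjusted p of 0.01. Red squares right of the dotted line, apart from the bin at 0.091 kb that it crosses, are opposite-strand bins and lie below 0 in the upper 2 plots; the vertical scale differs between plots.

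The named members show how unlike neighbouring piRNAs were. Of 31039 members tested against input, 1796 rose (5.79%) and 3504 fell (11.3%). Among all 686417 loci tested, 5.43% rose and 10.7% fell (16.1% in either direction), so pi6 was close to the background. Without input library 1 there were 2956 calls in pi6 and without input library 3 there were 3234. The most abundant member, the 30-nt piRNA 127800672 to 127800701 in the MIRc element, had 1037, 912 and 887 CPM in input and 384, 292 and 431 CPM in Ψ-IP. The Ψ-IP values lay below all input values, and the change was -1.5 on the log2 scale (SE 0.18, adjusted p = 7.0e-14). Its 29-nt form fell further, from 495, 409 and 427 CPM to 108, 63.5 and 120 CPM (log2 fold change -2.33, adjusted p = 2.6e-28). A further MIRc piRNA that begins 83 bases downstream, 127800755 to 127800783, had overlapping values of 175, 243 and 190 CPM in input and 178, 179 and 210 CPM in Ψ-IP. The 30-nt L2 piRNA 127817749 to 127817778 moved the other way, from 92.9, 140 and 108 CPM to 369, 336 and 464 CPM (log2 fold change 1.64, SE 0.19, adjusted p = 5.2e-15).

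Among members with an average of at least 100 counts and no overlap between groups, the largest rises in Ψ-IP were at 127831487 to 127831516 (log2 fold change 2.37), 127826277 to 127826306 (2.29) and 127801498 to 127801526 (2.2), all on the plus strand. The first of these went from 3.19, 2.48 and 3.02 CPM in input to 18.2, 10.2 and 21.2 CPM in Ψ-IP. In flow-through it was higher still, at 46.3, 32.2 and 33.4 CPM, as were the other two. The largest falls were at 127808466 to 127808495 (-4.36), 127796994 to 127797023 (-4.05) and 127833846 to 127833871 (-3.82). The member at 127808466, whose sequence is given above, had 13.5, 15.3 and 13.5 CPM in input and 0.857, 1.04 and 0.502 CPM in Ψ-IP. Its flow-through mean of 9.48 CPM ± 2.21 (SD, n = 3) also lay above all Ψ-IP values.

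The tested members began at 9099 ends, and 2587 of these had a called locus. Of the 1247 ends with 2 or more called loci, 53 had calls in both directions (4.25%), beside 3.53% of such ends over all loci. By length, 7.71% of the members of 29 to 31 nt rose and 12.4% fell, whereas of the 775 members of 14 to 23 nt 0.903% rose and 9.94% fell. These shares were not worked out for all loci of the same lengths, so the contrast is not shown to be particular to pi6. Shares of 29 to 31 nt were 71.2, 71.8 and 72.7% in Ψ-IP against 70.4, 70.7 and 70.1% in input, a difference of 1.49 points (exact two-sided permutation test, p = 0.1, the smallest that 3 against 3 libraries allow). Over all other loci the mean share was 67.0% in input and 68.9% in Ψ-IP. Beside the 5.43% of all loci that rose and the 10.7% that fell, in the MIRc element 38 of 189 members fell (20.1%) and 1 rose, and in the LINE Lx11 near the outer end of the plus arm 55 of 522 rose (10.5%) and 32 fell. Members that share a 5′ end and differ in length are not independent. In MIRc the ends at 127800672 and 127800755 had 27 and 24 lengths over all libraries. Fold changes of single loci depend on the scaling: on library totals, which move the median of all loci from -0.104 to 0.0257, 2277 pi6 members rose and 3041 fell.

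The comparison with flow-through asked which small RNAs the antibody retained rather than left unbound. The pi6 sum did not pass (log2 fold change 0.04, adjusted p = 0.110, where 40.0% of clusters did), and neither did the plus strand (0.03, adjusted p = 0.270). The plus strand passed with no minimum count (0.12, adjusted p = 1.18e-04) and was at -0.03 without loci in repeats. The minus strand was higher in Ψ-IP (0.19, SE 0.0278, adjusted p = 6.99e-05, where 20.7% of strand sums were higher and 46.8% passed in either direction). Without loci in repeats the minus strand was at 0.04 (adjusted p = 0.263). Of 78 bins, 20 were higher (25.6%) and 31 lower (39.7%) in Ψ-IP, and 55.1% of all bins passed, with 28.1% higher. The minus-strand bin from 127796001 at the point of divergence differed most, with 762, 731 and 708 CPM in Ψ-IP against 263, 284 and 297 in flow-through (log2 fold change 1.45, adjusted p = 1.5e-08). Among bins higher in Ψ-IP, the plus-strand bins from 127829001 (1.05) and 127836001 (0.98) followed. Of the 13 opposite-strand bins in the plus arm, 12 were lower in Ψ-IP, and the 13 changes ran from -1.19 to -0.44. A plus-strand bin within the minus arm, from 127786001, was lower by as much (-1.19). This comparison shares its Ψ-IP libraries with the one before, so they are not independent.

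Fewer members were called against flow-through than against input. Of the 31039 tested, 2627 were higher (8.46%) and 1208 lower (3.89%) in Ψ-IP, and of all loci 9.29% were higher and 3.57% lower (12.9% in either direction). Those counts rest on TMM scaling, which raised log2 fold changes by 0.249 over library totals; on totals 2104 pi6 members were higher and 1875 lower. The piRNA 127799200 to 127799229, next to 127800672 by its mean over all 15 libraries and the highest of the 8 most abundant in Ψ-IP, had 517, 787 and 760 CPM in Ψ-IP and 429, 364 and 433 CPM in input, but 45.1, 80.9 and 74.9 CPM in flow-through. It was thus scarce in the unbound fraction (log2 fold change 3.62, SE 0.25, adjusted p = 3.4e-44). The pair of lengths at 127835771 behaved alike: its 30-nt form had 303, 317 and 270 CPM in Ψ-IP and 19.6, 56.9 and 61.8 CPM in flow-through (2.93, adjusted p = 2.7e-28). The L2 piRNA did not, with 408, 665 and 407 CPM in flow-through (-0.08, SE 0.22, adjusted p = 0.84).

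The largest differences were at lower levels. On the minus strand 127786413 to 127786441 had 41.6, 51.3 and 33.6 CPM in Ψ-IP and 0.512, 0.810 and 1.33 CPM in flow-through (log2 fold change 5.85, adjusted p = 2.3e-57). On the plus strand 127805719 to 127805747 in RLTR14-int (5.81) and 127819069 to 127819098 (5.73) were next. The members lowest in Ψ-IP began at 127800136, in forms of 29 nt (-5.49) and 30 nt (-4.19), and at 127826337 (-4.77). The 30-nt form at 127800136 had 50.3, 44.5 and 46.6 CPM in flow-through, above both input (2.39, 3.44 and 2.97 CPM) and Ψ-IP (2.06, 1.73 and 2.55 CPM). Members in RLTR14-int were higher in Ψ-IP in 165 of 972 cases (17.0%) and lower in 30, while those in MIRc were higher in 2 of 189 and lower in 18, beside 9.29% and 3.57% of all loci. Here too, forms that share a 5′ end were counted one by one and are not independent.

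**Figure D5:**
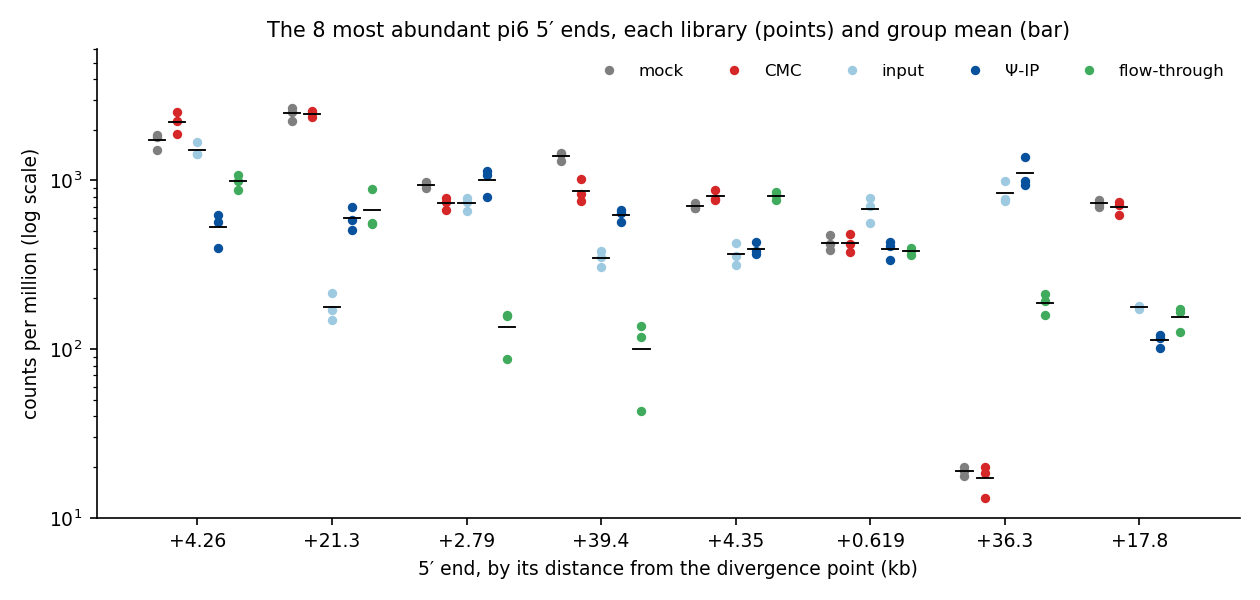
CPM on a log scale of the 8 most abundant pi6 5′ ends, placed by their distance in kb from the point where the strands part; points are libraries, coloured by group, and bars group means. At 4.26 kb the Ψ-IP points lie lowest and the CMC points highest, at 39.4 kb CMC lies below mock and Ψ-IP above input and flow-through, and at 36.3 kb both groups of the CMC set lie below 30 CPM.

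The third comparison asked which pi6 small RNAs were lost or changed after CMC. The cluster held 4.94, 4.89 and 4.85% of the mock-treated and 4.82, 4.87 and 4.75% of the CMC-treated counts, overlapping ranges (log2 fold change -0.01, SE 0.0193, adjusted p = 0.688; 2.17% of clusters passed). The minus-strand sum changed by -0.06 (adjusted p = 0.0685, or 0.0161 with the replicate number as a block). Of 83 bins tested 2 rose (2.41%) and 5 fell (6.02%), where 1.24% of all bins rose and 3.00% fell (4.24% in either direction). With the replicate number as a block, which may pair these libraries, 4 rose and 9 fell. Without mock library 2 a single bin was called, without mock library 1 or CMC library 2 there were 4, and without CMC library 1 there were 11.

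The bins that fell were at 127835001 (log2 fold change -0.41), 127834001 (-0.36), 127829001 (-0.29) and 127807001 (-0.23) on the plus strand and at 127789001 (-0.40) on the minus strand. The last went from 1271, 1368 and 1301 CPM with mock treatment to 1029, 999 and 1005 with CMC (adjusted p = 1.8e-04). The bins that rose were at 127804001 (0.25, adjusted p = 0.0017) and 127832001 (0.20, adjusted p = 0.0052). The first did not pass without mock library 2 (adjusted p = 0.0264), nor the other without mock library 1, 2 or 3 or CMC library 2 (adjusted p from 0.0164 to 0.0512). Of the falls, the one at 127789001 passed whichever library was left out, and it was the only pi6 bin called without mock library 2. Without that library the falls at 127807001, 127829001, 127834001 and 127835001 did not pass (edgeR adjusted p = 0.0428, 0.0316, 0.0168 and 0.0221). The fall at 127807001 also did not pass without mock library 1 or 3 or CMC library 2 (adjusted p from 0.0123 to 0.0177), that at 127829001 without mock library 1 (adjusted p = 0.0125) and that at 127835001 without CMC library 2 (adjusted p = 0.0106). Of 79 bins tested in both this comparison and that of Ψ-IP with input, 5 passed in both with all libraries (6.33%), each in opposite directions. Of these 5, 0 passed in both without mock library 2 and 3 without mock library 1 or CMC library 2, and 4 or 5 when any other library was left out. Over all 3114 bins tested in both, with all libraries, 94 passed in both (3.02%) and 76 of these moved in opposite directions (80.9%). With all libraries 127807001, 127829001, 127834001 and 127835001 were higher in Ψ-IP and lower with CMC, and 127804001 was lower in Ψ-IP (-0.39) and higher with CMC (0.25). The rise at 127804001 with CMC rested on its repeats, since the change was -0.12 without them.

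Of 23742 members tested with CMC, 302 rose (1.27%) and 192 fell (0.809%), against 1.08% and 0.654% of all 556183 loci (1.73% in either direction). The balance of both directions depended on the processing: 352 rose and 148 fell on library totals, 111 rose and 142 fell among members averaging 50 counts or more, and 172 rose and 60 fell without mock library 2. Of the 302 that rose 208 were 24 to 28 nt (68.9%) and 60 were 29 to 31 nt long (19.9%). Over all loci that rose these shares were 65.5 and 18.5%. Of the 192 that fell 32 were 24 to 28 nt (16.7%) and 120 were 29 to 31 nt long (62.5%). Of all 3636 loci that fell, 836 were 24 to 28 nt and 2400 were 29 to 31 nt long (66.0%), so called members were near all called loci in length. The share of 29 to 31 nt was 62.7, 61.8 and 58.6% with CMC and 64.6, 64.3 and 62.0% with mock treatment. That difference of -2.63 points was within the overlap of the groups (exact two-sided permutation test, p = 0.2), and the share over all other loci moved likewise, from a mean of 59.9 to 57.5%. Paired by number, each CMC-treated library lay below its mock-treated one (exact sign-flip test, p = 0.25, the smallest that 3 pairs allow). Without mock library 2 there were 232 calls and without CMC library 2 there were 298.

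Most members that rose after CMC matched a more abundant piRNA without its first bases. Of the 302, 224 (74.2%) shared their 3′ end with a locus that was more abundant in mock-treated libraries and began 1 to 10 bases upstream, and in 209 of them the offset was 1 to 4 bases. Of all 23742 tested members 31.3% had such a longer partner, and of the 192 that fell 9.38%. Among all loci of the series the shares were alike, with 73.2% of those that rose, 29.7% of those tested and 9.98% of those that fell. This property was looked for after the named members had been seen, and the call of each locus and the partner's level use the same mock-treated libraries, so it is given as a description.

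The 3 largest rises among members with an average of at least 100 counts were all of this kind. The 28-nt form 127800674 to 127800701 had 0.281, 0.377 and 0.325 CPM with mock treatment and 7.02, 7.37 and 6.48 with CMC (log2 fold change 4.3, SE 0.21, adjusted p = 4.1e-20). It lacks the first 2 bases of the most abundant pi6 piRNA, which itself had 1253, 1214 and 1035 CPM with mock treatment and 1470, 1596 and 1207 with CMC (0.22, adjusted p = 0.33). The form that lacks 1 base, 127800673 to 127800701, rose by 2.83 (adjusted p = 2.1e-14). The 26-nt form 127799204 to 127799229 rose by 3.85, from 0.562, 0.514 and 0.475 CPM to 6.36, 8.82 and 8.45 CPM. Its longer partner, which has 4 more bases at the 5′ end, was lower with CMC, at 512, 539 and 467 CPM against 681, 723 and 669 (-0.51, SE 0.10, adjusted p = 0.0011). The fall of this partner did not pass without mock library 2 or 3 or CMC library 3 (edgeR adjusted p from 0.0112 to 0.0465).

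The piRNAs of the MMERGLN-int element whose sequences open this account show the same at base level. The 30-nt piRNA 127807967 to 127807996 had 201, 199 and 198 CPM with mock treatment and 140, 119 and 109 with CMC (log2 fold change -0.76, SE 0.11, adjusted p = 9.6e-06). Its form without the first 3 bases rose by 2.84 (adjusted p = 1.7e-07). The overlapping piRNA 127807969 to 127807998 fell from 224, 229 and 224 CPM to 192, 157 and 153 CPM (-0.49, adjusted p = 0.0053), and its form without the first base rose by 1.18 (adjusted p = 0.0026). Both shortened forms begin at 127807970, and the reference base before it is U. In Ψ-IP neither piRNA differed from input beyond its error (-0.02, SE 0.21, and -0.07, SE 0.20), but both were above flow-through (2.67 and 1.63). Over all members with a reference base before the 5′ end, that base was U in 7 of 15 that rose with CMC (12 different 5′ ends), in 3 of 14 that fell and in 29.4% of the 1843 tested.

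The largest falls with CMC were at 127806475 to 127806504 in the retroviral sequence MURVY-int (log2 fold change -1.48), 127836059 to 127836087 (-1.41) and 127802827 to 127802844 (-1.29). The first went from 10.5, 5.65 and 6.69 CPM to 3.33, 2.57 and 2.34 CPM, without overlap. The third is an 18-nt locus, with 7.05, 8.02 and 8.02 CPM with mock treatment and a mean of 3.37 ± 0.828 with CMC (SD, n = 3), that was nearly missing from the Ψ-IP set.

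Both assays address Ψ, so members called in each were set side by side. Of the 13452 pi6 members tested in both, 49 were called higher in Ψ-IP than input and lower with CMC (0.364%), beside 0.298% of all loci tested in both. They made up 4.24% of those higher in Ψ-IP and 27.7% of those lower with CMC. A further 34 were lower in Ψ-IP and higher with CMC (0.253%, beside 0.194% of all loci), 13 were lower in both (0.0966%, beside 0.0576%) and 3 higher in both (0.0223%, beside 0.0368%). The count moved with single libraries: it was 31, 12 and 24 without mock library 1, 2 or 3, 87, 17 and 29 without CMC library 1, 2 or 3, and 30 and 24 without input library 1 or 3. It was 75 with the replicate number as a block in both fits.

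The 5 most abundant of the 49 lay in both arms. They were 127799200 to 127799229 and 127835771 to 127835800, described above, with 127829787 to 127829816 and 127829709 to 127829738 on the plus strand and 127790195 to 127790225 on the minus strand. The 30-nt piRNA 127835771 to 127835800 had 447, 429 and 380 CPM with mock treatment and 303, 237 and 205 with CMC (log2 fold change -0.81, SE 0.12, adjusted p = 7.7e-06), and 155, 140 and 157 CPM in input and 303, 317 and 270 in Ψ-IP (0.83, SE 0.19, adjusted p = 1.7e-04). At 127829787 the values were 124, 151 and 142 CPM in input and 274, 339 and 253 in Ψ-IP (0.91), and 156, 159 and 128 with mock treatment and 90.5, 95.2 and 72.9 with CMC (-0.84). At 127829709 the changes were 1.13 and -0.62. The minus-strand piRNA at 127790195 had 34.4, 52.1 and 39.8 CPM in input, 79.5, 90.3 and 74.1 in Ψ-IP and 19.8, 23.6 and 19.5 in flow-through. Several of these calls did not pass when 1 library was left out, among them the rise of 127799200 in Ψ-IP, which had an adjusted p of 0.0252 to 0.0667 without 1 of 5 of the 6 libraries and of 0.0232 with DESeq2. The rise of 127790195 did not pass without input library 1 or 3 (edgeR adjusted p = 0.0547 and 0.0362). Its fall with CMC did not pass without mock library 2 or 3 or CMC library 2 (edgeR adjusted p from 0.0497 to 0.0962).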

How the data were processed

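The authors clipped adapters with Cutadapt, kept reads of 14 to 44 nt, set tRNA fragments aside, mapped the rest to mm10 with Bowtie 2 allowing up to 3 mismatches, and intersected them with repeats and piRNA clusters (BEDTools). They deposited raw read counts, 1 for each interval on a strand. Intervals listed once for each of several repeats were counted here once. The files' starts count from 0, and 1-based positions are printed. The pi6 members, lists and comparisons were chosen with earlier results of these data known.

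Levels (CPM) are counts scaled to a common library total, each divided by its own library's total. Tests used edgeR 4.0.16 in R 4.3.3 (TMM, quasi-likelihood, Benjamini-Hochberg adjustment over all features tested, threshold 0.01) on the 6 libraries of a comparison: loci with more than 20 counts in the set, 1-kb bins by 5′ end with an average of at least 100 counts, and sums over the 647 clusters of the study's source data, with the pi6 window in place of the listed interval. SE is the size of the log2 fold change over the square root of F. DESeq2 1.42.0 was an alternative. Single values were compared by exact tests in Python 3.11.15. Scripts were tested on simulated data. Named loci were the 8 most abundant, up to 3 rises and 3 falls per comparison among called loci averaging at least 100 counts with no overlap between groups, and the 5 most abundant called in both assays; named bins were the 3 with most counts per strand and up to 3 largest changes each way per comparison. Sequences come from GENCODE M21 transcripts on GRCm38, the assembly of mm10.

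Replicates differed by more than sampling noise (chi-square per degree of freedom 2.69 to 11.5), and none were merged. Deviations of same-numbered libraries correlated at 0.124 to 0.293 for CMC and mock over loci averaging at least 50 counts, so their numbers may pair them. Those of different numbers correlated at -0.341 to 0.229, and 4 of 6 libraries matched best with their own number. Over loci averaging at least 10 counts the lowest same-numbered correlation was 0.052. In the Ψ-IP set the lowest was below 0.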

Additional observations from a re-analysis of the deposited data

How the results depend on the processing

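The pi6 results kept their direction and their side of the threshold in 202 of 263 re-computations of the answers to comparisons and in 963 of 1023 of named loci and bins, each changing 1 choice; the cause of the other changes was not tested. Against input, the cluster sum passed with DESeq2 size factors (0.074), the replicate block (0.061) and no minimum count (0.064). The plus-strand sum did not pass on library totals (0.047), with loci of 24 to 33 nt (0.048) or with the DESeq2 test (0.081), nor the minus-strand sum on totals (0.068). Loci outside repeats gave -0.02 for the minus strand against input, and against flow-through -0.009 for the cluster, -0.028 for the plus strand and 0.043 for the minus strand. The plus strand against flow-through passed with no minimum count (0.117). Loci outside repeats also turned the plus-strand bins from 127800001 (0.187 against input, 0.271 against flow-through, -0.275 with CMC), 127797001 (0.063 against input) and 127804001 (-0.117 with CMC), and the minus-strand bin from 127786001 (-0.171 against input, -0.011 with CMC). The length difference to other loci was -2.62 points with each locus counted once. Bins of 2 kb gave 21 calls against input, 31 against flow-through and 4 with CMC, where the replicate block gave 13 and DESeq2 11. Locus calls in the same order of comparisons were 1533, 1478 and 253 with an average of 50 counts or more, and 2878, 2162 and 280 by 5′ end; DESeq2 called 3032 against input. Loci higher in Ψ-IP and lower with CMC numbered 75 with the block, 29 with an average of 50 or more and 32 with DESeq2.

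Leaving out 1 library in turn gave, against input, 0.046 to 0.067 for the cluster, 0.058 to 0.074 for the plus strand, 0.075 to 0.094 for the minus strand and 2956 to 5353 locus calls. With CMC it gave -0.023 to 0.018 for the plus strand, 1 to 11 bins, 232 to 586 loci and, for both assays, 12 to 87 loci. The length difference to other loci was 3.45 to 3.63 points (exact sign-flip test, p = 0.0625, the smallest that 5 libraries allow). Uncalled changes that crossed 0 were those of the 30-nt L2 piRNA (-0.298 to 0.209 against flow-through, -0.028 to 0.234 with CMC), of its 19-nt form with CMC (-0.505 to 0.034), and with CMC of the bins from 127800001 (-0.023 to 0.075), 127797001 (-0.088 to 0.004) and 127786001 (-0.017 to 0.047). With 3 libraries a group, a change that did not pass is not shown to be absent.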
